A study of Rattus norvegicus with 6 samples.

Results

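Translation factors are the proteins that start and extend polypeptide chains on the ribosome, and their messages were examined here in INS-1 cells with and without added alpha smooth muscle actin (α-SMA). Members were the genes of the deposited transcript table whose symbol begins with Eif1 to Eif6, Eef1 or Eef2, with the 4 eIF2 kinases (Eif2ak1 to Eif2ak4) left out and with 10 or more counts over the 6 libraries. All 53 genes that matched had enough counts, out of 21553 genes with a named row, and all 53 passed the low-count filter of the test (13363 genes tested). INS-1 is an insulin-secreting line from a rat insulinoma. Per group, 3 biological replicates were sequenced, all at passage 7 to 15. INS-MOCK cells carry the genotype label wild type, and the labels do not say whether they received a virus. INS-SMA cells are labelled SMA overexpression and were made with a lentivirus carrying α-SMA. The labels do not say whether the transduced cells were a clone or a pool, and give no promoter and no time after transduction. Comparing the groups asks which messages are at another level in cells that carry the added actin.

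Initiation begins when eIF2, carrying GTP and the initiator methionyl-tRNA, joins the small ribosomal subunit with eIF1, eIF1A and eIF3. The cap-binding factor eIF4E, the scaffold eIF4G and the helicase eIF4A load this complex on the messenger RNA, where it scans for the start codon. In elongation, eEF1A delivers aminoacyl-tRNA, the eEF1B subunits recharge eEF1A with GTP, and eEF2 moves the ribosome by one codon. Beta cells make large amounts of secretory protein, and phosphorylation of eIF2α is the point at which endoplasmic reticulum stress slows initiation in them.

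The libraries held 24719503 to 39608609 counts. Human ACTA2 was at 135, 103 and 167 counts in INS-MOCK and at 941093, 1141322 and 1139159 in INS-SMA, as labelled. All 8 beta cell markers examined had a named row, and 5 of them were lower in INS-SMA (Ins1, Ins2, Pdx1, Nkx6-1 and Neurod1), while Slc2a2, Mafa and Iapp did not pass. Their summed level, most of it Ins1 and Ins2, was 26708 to 28942 CPM (counts scaled to a common library size) in INS-MOCK and 2053 to 2873 CPM in INS-SMA. The 8 fibroblast and smooth muscle markers with a row summed to 16.8 to 21.0 CPM in INS-MOCK and 17.1 to 17.7 CPM in INS-SMA. Within that sum Pdgfra was lower (15.3 to 8.24 CPM), and Col3a1 (0 to 3 counts per INS-MOCK library, 46 to 80 per INS-SMA library) and Myh11 (1.39 to 3.22 CPM) were higher. The 7 immune and endothelial markers summed to 1.94 to 3.90 and 3.31 to 4.45 CPM, with Ptprc higher (0 counts in all INS-MOCK libraries, 29 to 34 in INS-SMA). Col1a2, Dcn, Lum, Cd14 and Cdh5 were also at 0 in all INS-MOCK libraries and had at most 12 counts in an INS-SMA library. Rows that name no gene held 32.8% ± 0.17 of the counts in INS-MOCK and 36.2% ± 0.48 in INS-SMA (SD, n = 3). The part of these shifts in the values below was not tested. Reads of a known factor that fell in an unnamed row are missing from its value, and in bulk RNA fewer cells and less RNA per cell cannot be told apart.

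Translation factors moved in both directions, most of them by less than 2-fold. In edgeR's quasi-likelihood test at an adjusted p of 0.05, 12 of 53 (22.6%) were higher in INS-SMA, where 28.1% of all tested genes were, and 17 (32.1%) were lower, against 27.0% of all tested genes. Their median log2 fold change (INS-SMA over INS-MOCK, called the log2 difference below) was -0.18, and that of all tested genes 0.03. Without normalisation factors 13 were higher and 12 lower, against 31.0% and 24.5% of all tested genes. Changes of at least 2-fold were called for 2 lower members, Eif4a1 and Eef2k (3.77%, against 12.5% of all genes), and for 1 higher member, Eef1d (1.89%, against 15.6%). The 3 INS-SMA libraries lay wholly above the 3 INS-MOCK libraries for 12 members and wholly below them for 20, which is 22.6% and 37.7% of members against 33.5% and 31.9% of all tested genes (65.3% in either direction). DESeq2 called 13 members higher and 19 lower, against 32.7% and 29.4% of all tested genes. Of the 29 calls, 20 were the same under all 16 alternatives run.

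**Figure D1:**
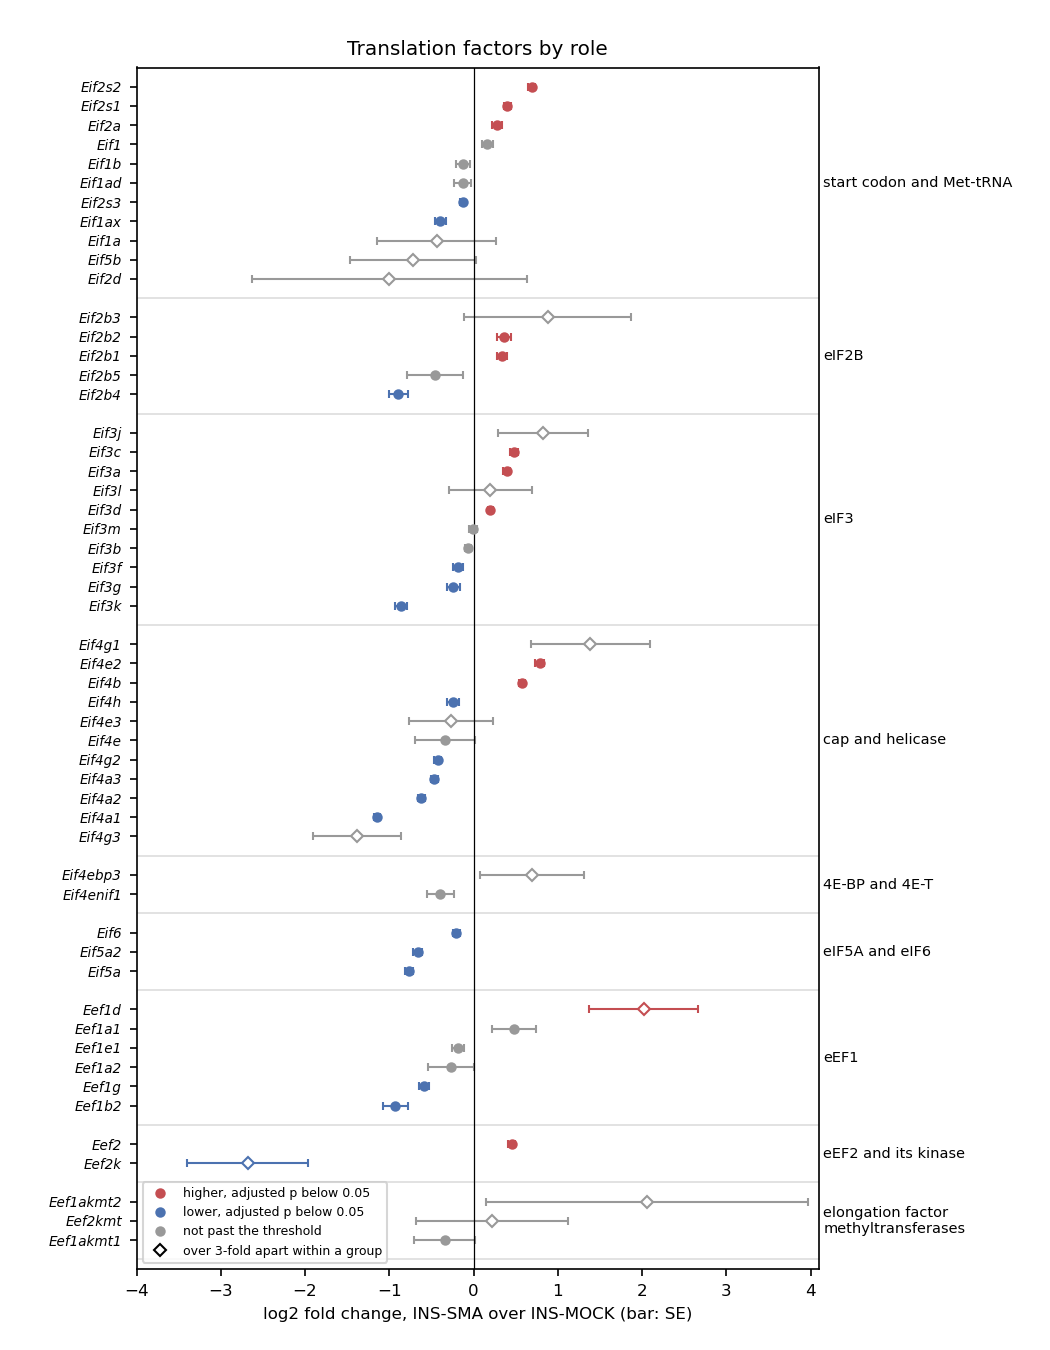
Log2 fold change of each of the 53 translation factors (x axis, INS-SMA over INS-MOCK, bars are standard errors), grouped by role. Red points passed the test as higher (12), blue as lower (17), and open diamonds mark the 14 members whose level differed more than 3-fold between libraries of a group, which carry the widest bars.

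Together, members took 1.93% to 2.00% of the counts in named genes in the INS-MOCK libraries and 2.13% to 2.17% in the INS-SMA libraries. In TMM-scaled CPM their sum was 20041 to 20491 in INS-MOCK and 20362 to 21313 in INS-SMA, and the groups overlapped. With Eef2 left out, the most counted member and one that was called higher, the sum was 14759 to 14930 CPM in INS-MOCK. It was then 13080 to 13976 CPM in INS-SMA, without overlap. These CPM were computed on library sizes scaled by TMM (trimmed mean of M-values). They are not divided by transcript length, so levels are compared here between libraries and not between genes. Eef1a1 added only 42 to 56 counts per library to these sums, which can miss reads that lie in unnamed rows.

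RefSeq promoter windows (build GRCr8, 250 bases before to 50 after a gene's start) were found by symbol for 50 of the 53 members and not for Eif4b, Eef1d or Eif4e3. They were searched on both strands for 8 motifs. Upstream stretches of 6 members that passed the test are printed because they hold the matches described next. Eef2, Eif2s2, Eif2b1 and Eif2b2 were called higher in INS-SMA, and Eif5a and Eif5a2 were called lower. The calls of Eif2b2 and Eif5a2 were lost in their most abundant rows, as given below. Capitals mark the motif matches, and each line runs 5′ to 3′ on the gene's strand.
Eef2 (chr7:9189239-9189344, minus strand): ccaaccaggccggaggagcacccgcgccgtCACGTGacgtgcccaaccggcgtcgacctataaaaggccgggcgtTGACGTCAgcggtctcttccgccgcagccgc
Eif2s2 (chr3:163855571-163855636, minus strand): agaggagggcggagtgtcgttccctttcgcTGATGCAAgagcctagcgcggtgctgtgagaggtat
Eif2b1 (chr12:37686462-37686529, plus strand): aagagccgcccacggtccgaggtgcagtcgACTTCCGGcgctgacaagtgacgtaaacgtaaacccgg
Eif2b2 (chr6:110597932-110597978, plus strand): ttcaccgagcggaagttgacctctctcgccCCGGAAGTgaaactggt
Eif5a (chr10:55143392-55143457, minus strand): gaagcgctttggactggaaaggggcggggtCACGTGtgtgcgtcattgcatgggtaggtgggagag
Eif5a2 (chr2:113657586-113657781, plus strand): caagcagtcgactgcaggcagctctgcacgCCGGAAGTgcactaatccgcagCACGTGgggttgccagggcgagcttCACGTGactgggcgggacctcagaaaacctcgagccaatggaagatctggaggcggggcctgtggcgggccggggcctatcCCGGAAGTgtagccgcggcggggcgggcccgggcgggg

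The E-box CACGTG, which MYC and related factors bind, was found for 11 of the 50 members with a window (22%). It was in 6.42% of all 33469 windows and was found for 9.51% of the 9318 tested symbols that have a window. Shares of members and of tested symbols count a gene once, over all its windows. Those 11 members comprised 2 that were higher (Eef2 and Eif3a), 5 that were lower (Eif5a, Eif5a2, Eif3f, Eif4h and Eef2k) and 4 that did not pass the test. The E-box was thus present in members of either direction. Of all tested genes, 28.1% were higher and 27.0% lower. The ETS motif CCGGAAGT was found for 9 members (18%, against 3.81% of all windows and 8.24% of tested symbols). Of these, 5 were higher, 1 was lower and 3 did not pass, beside the same 28.1% and 27.0% of all tested genes. The calls of Eif2b2 (higher) and Eif5a2 (lower) were lost in their most abundant rows. Eif2a and Eif2b1, both among the higher members, overlap genes on the opposite strand. The composite C/EBP-ATF motif TGATGNAA, of the kind found in ATF4 and CHOP targets, was in the windows of Eif2s2 (higher) and Eif3g (lower), 4% of members, 3.98% of all windows and 2.01% of tested symbols. The cAMP response element TGACGTCA was in the window of Eef2 alone (2%; 1.83% of all windows, 3.32% of tested symbols). The interferon-type motif was found for 4 members (8%, against 3.92% and 3.03%) and the NRF1 motif for 1 (2%, against 0.852% and 1.9%). The YY1 motif was found for 1 (2%, against 0.675% and 1.95%) and the BANP element for 0 (against 0.373% and 1.05%). The motifs were chosen with the results known, and a match is a description of the letters only.

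The subunits of eIF2 did not move together. Eif2s2, which encodes the β subunit (chromosome 3, 150391460 to 150412179, minus strand), was at 439, 447 and 418 CPM in INS-MOCK and at 679.8, 719.9 and 708 CPM in INS-SMA. All INS-SMA libraries stood well above all INS-MOCK libraries, with a log2 difference of 0.69 (SE 0.04, edgeR adjusted p = 5.85e-05). Eif2s1, the α subunit that the stress kinases phosphorylate, rose from 145 ± 7.24 to 192 ± 3.50 CPM, a log2 difference of 0.40 (SE 0.05, adjusted p = 0.000797). Eif2s3, the γ subunit that binds GTP and the initiator tRNA, was at 351, 369 and 362 CPM in INS-MOCK and 322, 337 and 328 CPM in INS-SMA. The groups of Eif2s3 did not overlap but lay close, and its log2 difference of -0.13 (SE 0.03, adjusted p = 0.0215) lost its call in 4 alternatives, among them no normalisation factors (-0.04, adjusted p = 0.339, the highest of a range of 0.00302 to 0.339). The ratio of Eif2s2 to Eif2s3 counts within a library needs no scaling between libraries. The ratios given here were picked after the values were seen and carry no test. That of Eif2s2 to Eif2s3 was 1.25, 1.21 and 1.155 in INS-MOCK and 2.11, 2.13 and 2.16 in INS-SMA, 1.77 times as high on average.

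Among the other factors of this step, Eif1ax, an X-linked gene for eIF1A, which keeps the scanning complex open, fell from 278 ± 3.602 to 211 ± 17.3 CPM (log2 difference -0.40, SE 0.06, adjusted p = 0.00343). Eif2a encodes a separate methionyl-tRNA carrier, not a subunit of eIF2. It rose by 0.28 (SE 0.05, adjusted p = 0.00672), but its span overlaps Serp1 on the opposite strand, which holds 46493 counts, and the strand setting of the counting is not given. Eif1, which guards start codon choice, was at 1288, 1149 and 1183 CPM in INS-MOCK and 1347, 1438 and 1267 CPM in INS-SMA. These groups overlapped, and its log2 difference of 0.16 did not pass (adjusted p = 0.0857; 0.00868 with DESeq2, 0.0177 without normalisation factors and 0.0413 in its most abundant row, in a range of 0.00868 to 0.243). In all, 3 of 11 members of this group were higher (27.3%) and 2 lower (18.2%), against 28.1% and 27.0% of all tested genes.

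The guanine nucleotide exchange factor eIF2B, which recharges eIF2 with GTP, has 3 regulatory subunits that sense eIF2α phosphorylation and 2 catalytic ones. The regulatory subunits split. Eif2b1 (α) was at 65.9, 65.7 and 71.1 CPM in INS-MOCK and 89.8, 82.0 and 84.9 CPM in INS-SMA (log2 difference 0.34, SE 0.06, adjusted p = 0.00404). Its span overlaps Ddx55 and Gtf2h3 on the opposite strand. Eif2b4 (δ) was at 39.8, 35.8 and 45.3 CPM in INS-MOCK and 21.0, 23.4 and 20.6 CPM in INS-SMA, a log2 difference of -0.89 (SE 0.11, adjusted p = 0.0013). Neither gene's groups overlapped, and the ratio of Eif2b1 to Eif2b4 counts was 1.69 ± 0.13 in INS-MOCK and 3.96 ± 0.41 in INS-SMA (SD, n = 3), 2.35 times as high. Eif2b2 (β) was called higher at 0.37 (SE 0.08, adjusted p = 0.0122), but that call rests on a second row with 412 and 233 counts in INS-SMA replicates 2 and 3 and 0 in the other 4 libraries. In its most abundant row alone the log2 difference was -0.0092 (adjusted p = 0.976, in a range of 1.56e-05 to 0.976). The catalytic subunit gene Eif2b5 (ε) had a log2 difference of -0.46 and did not pass (adjusted p = 0.296), and Eif2b3 (γ) is described with the unsteady members below.

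In eIF3, the large scaffold that holds the initiation complex together, 3 of 10 members were higher, 3 lower, and 4 did not pass. These shares, 30% higher and 30% lower, were near the 28.1% and 27.0% of all tested genes. The large subunit genes Eif3c and Eif3a rose. Eif3c was at 782, 826 and 779 CPM in INS-MOCK and 1048, 1144 and 1127 CPM in INS-SMA (log2 difference 0.48, SE 0.05, adjusted p = 0.000442), and Eif3a went from 666 ± 12.4 to 875 ± 38.3 CPM (0.39, SE 0.04, adjusted p = 0.000547). Eif3d, a subunit that can itself bind the cap, rose by 0.20 (SE 0.03, adjusted p = 0.00176). Eif3k, a peripheral subunit, was at 84.3, 90.9 and 84.9 CPM in INS-MOCK and 47.3, 51.3 and 44.4 CPM in INS-SMA. That is a log2 difference of -0.86 (SE 0.07, adjusted p = 0.000222), with every INS-SMA library far below the lowest INS-MOCK library. Per count of Eif3k there were 9.18 ± 0.10 counts of Eif3c in INS-MOCK and 23.3 ± 1.83 in INS-SMA, 2.53 times as many.

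Smaller falls were called for Eif3f (-0.19, adjusted p = 0.0418) and Eif3g (-0.24, adjusted p = 0.0448), an RNA-binding subunit. Neither held under most changes of setting. Eif3f lost its call in 11 of 16 alternatives (adjusted p 0.0207 to 0.251 over all) and Eif3g in 9 (0.0101 to 0.183). Eif3b, which belongs to the same core as Eif3a and Eif3c, was at 415, 425 and 426 CPM in INS-MOCK and 385, 411 and 412 CPM in INS-SMA. It did not pass, with a log2 difference of -0.07 (SE 0.04, adjusted p = 0.195) that was 0.026 without normalisation factors.

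**Figure D2:**
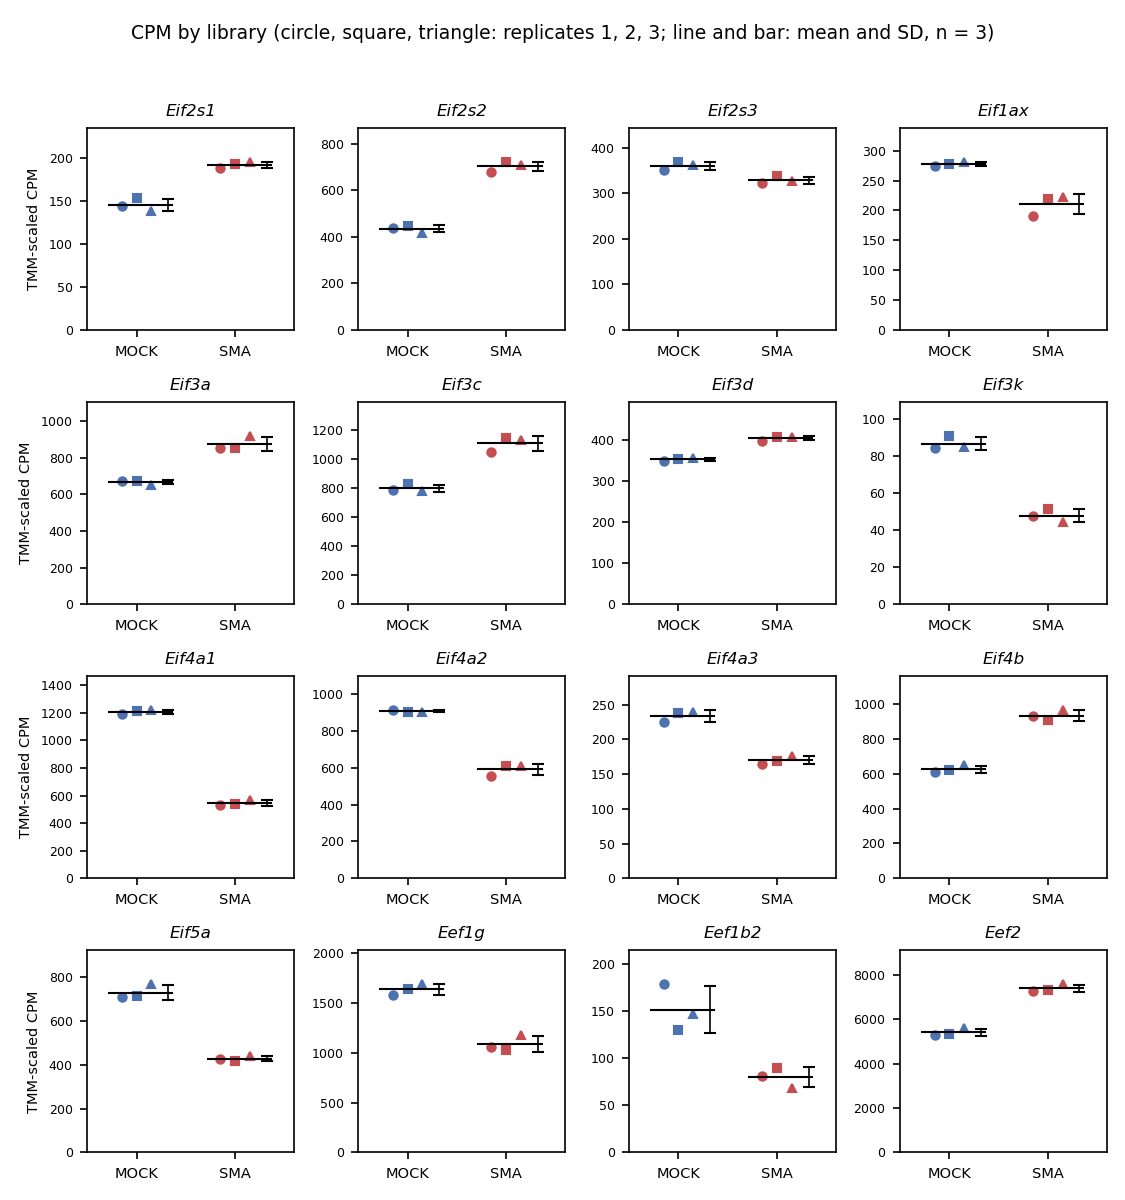
TMM-scaled CPM (y axes, from 0) of 16 translation factors in each library, with INS-MOCK in blue and INS-SMA in red. Lines are means and bars are SD of 3 libraries. Only members whose groups do not overlap are shown, with Eif2s1, Eif2s2, Eif3a, Eif3c, Eif3d, Eif4b and Eef2 higher and the other 9 lower in INS-SMA. In 21 of the 53 members the groups overlap. Of all tested genes, 65.3% have groups that do not overlap.

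All 3 eIF4A genes fell, where 27.0% of all tested genes were called lower. Eif4a1, the main RNA helicase of initiation (chromosome 10, 56271257 to 56276764, minus strand), was at 1191, 1212 and 1217 CPM in INS-MOCK and 530.01, 539 and 569.98 CPM in INS-SMA. This was the smallest adjusted p of any member, with a log2 difference of -1.14 (SE 0.04, edgeR adjusted p = 1.09e-05) and replicates within a narrow band. Eif4a2, its near-identical paralog, went from 907 ± 6.34 to 591 ± 31.8 CPM (-0.62, SE 0.05, adjusted p = 0.000142). Eif4a3, a component of the exon junction complex and not an initiation factor in the strict sense, went from 234 ± 8.36 to 169.7 ± 5.73 CPM (-0.46, SE 0.04, adjusted p = 0.000368). Reads of Eif4a1 and Eif4a2 can be hard to tell apart. The count ratio of Eif4a2 to Eif4a1 was 0.77, 0.75 and 0.74 in INS-MOCK and 1.05, 1.13 and 1.07 in INS-SMA, so the fall was unequal.

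The helper proteins of the helicase went apart. Eif4b, which stimulates eIF4A, was at 608, 623 and 647 CPM in INS-MOCK and 929.9, 906 and 966 CPM in INS-SMA (log2 difference 0.58, SE 0.04, adjusted p = 0.00011). Every INS-SMA library exceeded every INS-MOCK library, and Eif4b counts per Eif4a1 count went from 0.519 ± 0.011 to 1.71 ± 0.039, 3.30 times as high. Eif4h, a relative of eIF4B with the same activity, had a log2 difference of -0.25 (SE 0.07, adjusted p = 0.0266). Its call was lost without normalisation factors (-0.15, adjusted p = 0.13), without INS-SMA replicate 1 (0.073) or replicate 2 (0.0807), and the sign turned in its most abundant row (0.18, adjusted p = 0.214), in a range of 0.00307 to 0.214.

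Among cap-binding and scaffold genes, Eif4e2, whose product 4EHP binds the cap without recruiting eIF4G, was at 39.0, 38.5 and 41.9 CPM in INS-MOCK and 68.6, 67.4 and 69.7 CPM in INS-SMA. The rise was 0.78 on the log2 scale (SE 0.06, adjusted p = 0.000123), the second largest among called members. Eif4e itself was at 102, 185 and 174 CPM in INS-MOCK and 139.6, 152 and 72.1 CPM in INS-SMA. Its groups overlapped, and its log2 difference of -0.34 (SE 0.36) did not pass (adjusted p = 0.463). Without INS-SMA replicate 3 it was -0.075. Eif4g2 (DAP5), an eIF4G relative that lacks the eIF4E-binding part, fell from 1838 ± 48.0 to 1367 ± 58.1 CPM (-0.43, SE 0.04, adjusted p = 0.000465). The proteins that hold eIF4E inactive or move it to the nucleus were represented by Eif4ebp3 (0.69, adjusted p = 0.391) and Eif4enif1 (-0.39, adjusted p = 0.0847), and neither passed. Eif4enif1 passed with DESeq2 (0.0373) and with the replicate number as a block (0.0275), in a range of 0.0275 to 0.254. Eif4ebp1 and Eif5 were on the list of genes to report and had no row under these symbols, so they are not analysed here.

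All 3 members of the eIF5A and eIF6 group fell, where 27.0% of all tested genes were called lower. Eif5a, whose hypusine-bearing product resolves stalled ribosomes, was at 708, 712 and 768 CPM in INS-MOCK and 427, 416 and 441 CPM in INS-SMA (log2 difference -0.77, SE 0.05, adjusted p = 6.16e-05). Its paralog Eif5a2 was at 89.0, 93.6 and 89.97 CPM and then at 55.3, 56.3 and 60.4 CPM (-0.66, SE 0.05, adjusted p = 0.000192). In both genes the 3 INS-SMA libraries lay far below the lowest INS-MOCK library. The call of Eif5a2 was lost in its most abundant row (-0.38, adjusted p = 0.158, the highest over its alternatives, from 1.93e-29). Eif6, which keeps the large subunit from joining too early, fell by 0.20 (SE 0.04, adjusted p = 0.0072). It lost its call without normalisation factors (0.0868) and in its most abundant row (0.0693), in a range of 0.000122 to 0.0868.

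**Figure D3:**
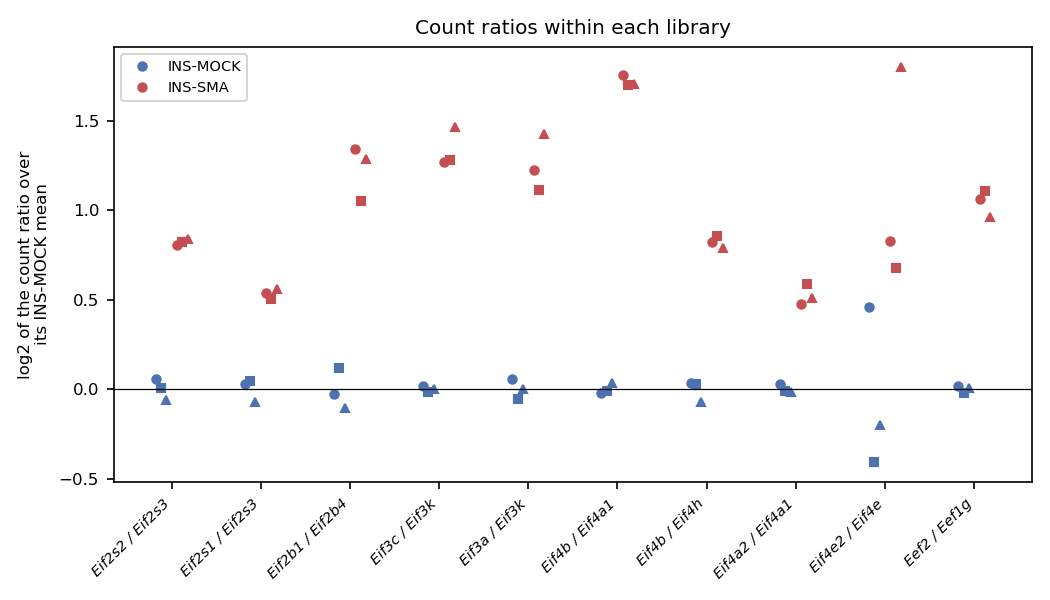
Ratios of counts of 2 translation factors within a library, as log2 of the ratio over its INS-MOCK mean (y axis), for 10 pairs. Blue points are INS-MOCK and red points INS-SMA libraries. The pairs were picked after the values were seen, and in each the INS-SMA libraries lie above all INS-MOCK libraries.

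Elongation factor messages diverged in the same way. Eef2, the ribosomal translocase (chromosome 7, 11401501 to 11406771, minus strand), was at 5282, 5340.2 and 5613 CPM in INS-MOCK and 7282, 7337 and 7597 CPM in INS-SMA. Its 119140 to 195347 counts per library made it the most counted member, and it rose by 0.45 on the log2 scale (SE 0.04, adjusted p = 0.000233). Of the eEF1B subunit genes, Eef1g and Eef1b2 fell, while Eef1d, described with the unsteady members below, was called higher. Eef1g (γ) was at 1579.95, 1641 and 1687 CPM in INS-MOCK and 1054, 1030.4 and 1179.7 CPM in INS-SMA (-0.59, SE 0.06, adjusted p = 0.000554). Eef1b2 (an exchange subunit) was at 179, 129 and 147 and then at 80.8, 89.9 and 68.6 CPM (-0.93, SE 0.15, adjusted p = 0.00367). No INS-SMA library of either gene reached the lowest INS-MOCK library. The ratio of Eef2 to Eef1g counts rose from 3.31 ± 0.047 to 6.82 ± 0.35, 2.06 times as high. Eef1e1, a member of the multi-synthetase complex, did not pass (-0.18, adjusted p = 0.0652).

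Eef1a1, the tRNA carrier of most cells and as a rule among their most abundant messages, had only 42, 44 and 44 counts in INS-MOCK and 55, 56 and 50 in INS-SMA. Its log2 difference of 0.48 (SE 0.26) did not pass (adjusted p = 0.18). How many of its reads lie in unnamed rows cannot be read from the table, which gives those rows no position. Eef1a2, the form of neurons, muscle and endocrine cells, was at 56.5, 28.1 and 38.8 CPM in INS-MOCK and 37.6, 28.3 and 36.5 CPM in INS-SMA (-0.27, adjusted p = 0.454), with overlapping groups and the sign turned without INS-MOCK replicate 1 (0.034). The 3 genes for lysine methyltransferases of elongation factors were at 0 to 9.40 CPM in every library and did not pass. The best measured of them, Eef1akmt1, had a log2 difference of -0.34 (adjusted p = 0.47), which was 0.019 without INS-MOCK replicate 3.

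The 14 members that differed more than 3-fold within a group (26.4% of members, against 21.9% of all tested genes) need their libraries shown one by one. Eef2k, the kinase that inhibits eEF2, was at 87.1, 85.6 and 14.1 CPM in INS-MOCK and 12.3, 7.48 and 9.37 CPM in INS-SMA. INS-MOCK replicate 3 thus lay next to the INS-SMA libraries, and the call (-2.68, SE 0.72, adjusted p = 0.0226) was lost when any library but that one was left out (0.0577 to 0.0777) and with the replicate block (0.0756). Eef1d (δ of eEF1B) was at 6.61, 6.01 and 4.66 CPM in INS-MOCK and 22.1, 41.3 and 6.77 CPM in INS-SMA. INS-SMA replicate 3 was level with INS-MOCK, and the call (2.02, SE 0.65, adjusted p = 0.0427) was lost when any library but INS-SMA replicate 3 was left out (0.0879 to 0.124), with the replicate block (0.0751) and in its most abundant row (0.0526). Without INS-SMA replicate 2 its log2 difference was 1.32. Leaving out all 14 such members left 11 higher (28.2%) and 16 lower (41.0%) of 39. The shares of all tested genes under the same rule were not computed, so these have no background beside them.

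Other members of this kind did not pass. Eif4g1, the main scaffold of cap-dependent initiation, was at 81.4, 89.0 and 75.9 CPM in INS-MOCK and 115, 456 and 72.6 CPM in INS-SMA. A single library, INS-SMA replicate 2, set its log2 difference of 1.39 (adjusted p = 0.153), which was 0.19 without it. The same library set the value of Eif3j, which was at 44.5, 169 and 54.8 CPM in INS-SMA and 48.6 to 53.7 CPM in INS-MOCK (0.83, and -0.023 without it). Eif1a was at 181 to 198 CPM in 5 libraries and at 26.1 CPM in INS-SMA replicate 3 (-0.43, and 0.058 without it). Eif2b3 was at 2.31 CPM in INS-MOCK replicate 1 and at 44.3 to 73.3 CPM in the other 5 libraries (0.88, and 0.33 without it). Eif4g3 was at 28.5 CPM in INS-MOCK replicate 1 and at 5.83 to 10.6 CPM elsewhere. It had a log2 difference of -1.38 (adjusted p = 0.0717), which was -0.60 without that library; it passed with DESeq2 (0.0135) and without INS-MOCK replicate 3 (0.0311), in a range of 0.0135 to 0.16.

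**Figure D4:**
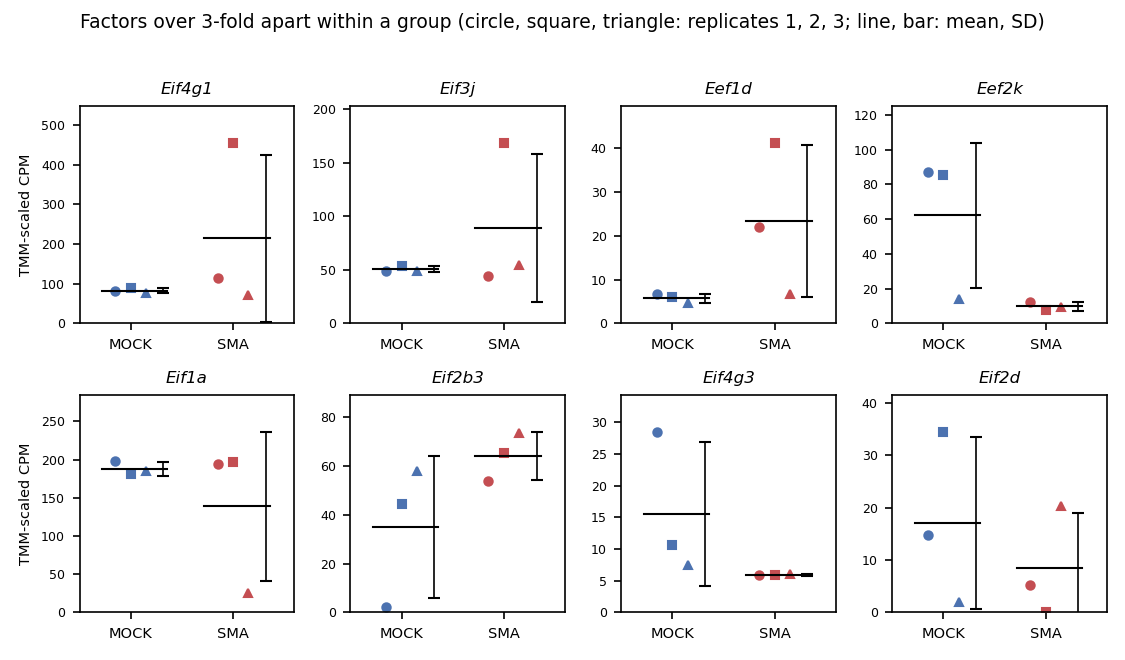
TMM-scaled CPM (y axes, from 0) in each library for 8 of the 14 translation factors that differed more than 3-fold within a group. Squares, circles and triangles are single libraries, lines are means and bars are SD. In Eif4g1 and Eif3j INS-SMA replicate 2 stands apart, and in Eif1a INS-SMA replicate 3 does.

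The table splits 20 of the members over several transcript rows, 93 rows in all. Tested row by row with all named rows, 79 of the member rows entered the test, 13 (16.5%) were higher and 17 (21.5%) lower, against 15.6% and 14.6% of all rows tested. Eif4a2 had the most rows, 8. Its main row, ENSRNOT00000002484, held 48.3%, 43.8% and 46.3% of the gene's counts in INS-MOCK and 31.0%, 36.2% and 34.1% in INS-SMA, and fell by 1.09 on the log2 scale (adjusted p = 0.00184). A further row, ENSRNOG00000001815.3, fell by 1.34 (adjusted p = 0.000345). Rows ENSRNOG00000001815.5 and ENSRNOG00000001815.1 rose by 1.18 (adjusted p = 0.0028) and 0.71 (adjusted p = 0.0105), the first from 2.89% to 3.73% of the gene's counts in INS-MOCK to 11.04% to 11.98% in INS-SMA. Rows ENSRNOG00000001815.4 and ENSRNOG00000001815.6 also took larger shares in every INS-SMA library, but their own levels did not pass (0.36 and 0.86, adjusted p = 0.399 and 0.0857). The division of Eif4a2 counts thus differed between groups beyond the spread of the libraries, and in its most abundant row alone the gene's log2 difference was -1.005. Such shifts were not particular to Eif4a2. Row ENSRNOG00000020463.1 held 5.77% to 11.4% of Eif1ad counts in INS-MOCK and 21.6% to 35.2% in INS-SMA. For Eif4g2, row ENSRNOG00000017158.1 held 12.9% to 15.9% and then 21.2% to 27.0%. In Eif3k, row ENSRNOT00000087522 rose by 1.91 (edgeR adjusted p = 0.0287) while the gene fell. These rows were picked after their values were seen. Several small RNA genes lie within Eif4a2 and Eif4a1 on the same strand, and they held 58 to 316 counts each over the 6 libraries.

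**Figure D5:**
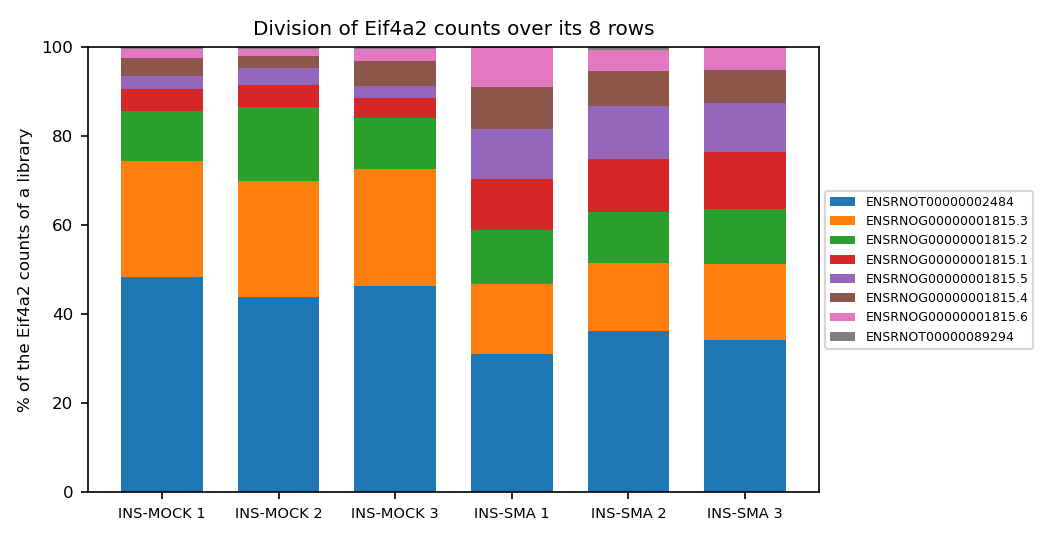
Share of the Eif4a2 counts of each library (y axis, percent) in each of its 8 rows. The 2 largest rows at the bottom take a smaller share in the 3 INS-SMA libraries than in the 3 INS-MOCK libraries, and 4 of the smaller rows, ENSRNOG00000001815.1, ENSRNOG00000001815.4, ENSRNOG00000001815.5 and ENSRNOG00000001815.6, a larger one.

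Other genes of the translation pathway were taken from a list of 53, of which 51 had a named row and 50 were tested. Of these, 17 (34%) were higher and 11 (22%) lower, against 28.1% and 27.0% of all tested genes. Among regulators of eIF2, Ppp1r15a (GADD34), which directs the phosphatase to eIF2α, rose the most. It was at 34.5, 35.5 and 31.97 CPM in INS-MOCK and 353, 289 and 343 CPM in INS-SMA (log2 difference 3.27, SE 0.10, adjusted p = 8.71e-06). All INS-SMA libraries were many times above INS-MOCK. In this class 4 of 10 (40%) rose and 1 (10%) fell, against the same 28.1% and 27.0% of all tested genes. Of the kinases, Eif2ak3 (PERK) was at 44.6 ± 2.00 and 47.7 ± 0.24 CPM and did not pass (0.10, adjusted p = 0.203). It passed without normalisation factors (0.0293) and was at -1.01 in its most abundant row (0.525), the ends of its range. Eif2ak2 (PKR), an interferon-induced kinase, was at 414, 147 and 119.8 CPM in INS-MOCK and 523, 570.1 and 626 CPM in INS-SMA. INS-MOCK replicate 1 lay closer to INS-SMA than to its own group. The log2 difference of 1.34 (adjusted p = 0.0686) was 2.11 without that library (0.000312), and it passed with DESeq2 (0.0382), in a range of 0.000312 to 0.174.

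In the mTOR and MNK class, which controls eIF4E and eIF4B, 6 of 15 genes rose (40%) and 2 fell (13.3%). Of all tested genes, 28.1% were higher and 27.0% lower. Ddit4 (REDD1), an inhibitor of mTOR complex 1, rose from 22.1 ± 3.14 to 135 ± 6.86 CPM (2.61, SE 0.12, adjusted p = 2.57e-05). Pdcd4, which blocks eIF4A, rose by 0.41 (SE 0.06, adjusted p = 0.00192; 0.192 in its most abundant row, from 2.68e-13). Among poly(A) and cap partners 2 of 8 (25%) rose and 2 (25%) fell, near the shares of all tested genes. Pabpc1, the poly(A)-binding protein that bridges to eIF4G, went from 2055 ± 174 to 1401 ± 46.5 CPM (-0.55, SE 0.07, adjusted p = 0.00111). Among the 4 termination and recycling genes, Gspt1, which encodes release factor eRF3a, was the member that passed, rising from 21.4 ± 2.98 to 170.4 ± 61.5 CPM (2.99, SE 0.30, adjusted p = 0.000494; 4.22 in its most abundant row). Mcts1, a re-initiation factor, fell from 97.5 ± 5.34 to 44.5 ± 0.74 CPM (-1.13, SE 0.06, adjusted p = 3.48e-05).

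Of the 9 enzymes that modify eIF5A and eEF2, 4 (44.4%) were lower and 2 (22.2%) higher, against 27.0% and 28.1% of all tested genes. Dnajc24 and Dph6, both of the pathway that makes diphthamide on eEF2, fell by 1.78 (SE 0.17, adjusted p = 0.000368) and 1.33 (SE 0.26, adjusted p = 0.00706) on the log2 scale. Dnajc24 was at 35.4, 29.7 and 31.4 CPM in INS-MOCK and 8.05, 8.67 and 11.4 CPM in INS-SMA, and Dph6 at 3.26 to 4.17 and 1.19 to 1.86 CPM. Neither gene's groups overlapped. The pathway did not move one way, since Dph3 was also lower (60.3 to 34.6 CPM) while Dph7 (18.5 to 35.998 CPM) and Dph2 (31.1 to 43.4 CPM) were higher, and Dph1 and Dph5 did not pass. The fourth fall was that of Dhps, which starts the hypusine modification of eIF5A (31.4 to 17.1 CPM). All directions in this text come from 3 libraries per group, and p-values weigh the group difference against the spread between those libraries. Since the labels do not say whether the transduced cells were a clone or a pool, spread between separately transduced lines may not be covered.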

How the data were processed

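RNA sequencing of 6 INS-1 libraries (INS-MOCK and INS-SMA, 3 each) was used. The authors deposited raw counts, whole numbers per transcript row, without pooling. HISAT2, HISAT, DESeq2 and the builds hg19 and rn6 are named without roles, per the submitters' processing notes; no source used here names the counting program, strand setting or annotation. Of 101905 rows, 66301 name no gene and were left out (32.7% to 36.7% of a library's counts). Counts were summed per gene; the added human ACTA2 has a row of its own and is among the tested genes. edgeR 4.0.16 (filterByExpr, TMM, glmQLFit, glmQLFTest, R 4.3.3) compared the groups on 13363 genes, with Benjamini-Hochberg adjustment and SE as the log2 fold change over the square root of F. In counts simulated first, edgeR recovered 34% of 100 genes changed by 1 on the log2 scale and 74% of 100 changed by 2. It called 5 unchanged genes. DESeq2 recovered 66% and 92% and called 74 unchanged genes. No other genes were changed in the simulation, whereas 55.1% of 13363 genes passed in the data. The adjustment thus worked at another share of changed genes, and the recovered shares do not give the recovery in the data. A gene that did not pass can still have changed. DESeq2 1.42.0 was an alternative, as were other factors, filters, rows, library sizes, a replicate block and leaving out each library. Replicates of a group differed by more than counting error (chi-square over its degrees of freedom, 46.8 to 61.0). Same-numbered libraries did not deviate together (correlations -0.028, -0.013 and -0.026).

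Members and lists were chosen with earlier results of these data known. Genes given in full were a set list (Eif4ebp1, Eif2s1, Eif4e, Eif4g1, Eif5, Eif5a, Eef1a1, Eef1a2, Eef2, Eef2k), up to 2 higher and 2 lower members with the smallest adjusted p and the most abundant member of each role, and the 5 largest rises and falls. From the other list came the 3 largest rises and falls with Ppp1r15a, Pdcd4, Pabpc1, Eif2ak2 and Eif2ak3. Eif4a3, Eif4h, Eif3b, Eif3d, Eif3g, Eif3j, Eif6, Eif2a, Eif1a, Eif2b3, Eif2b5, Eif4g3, Eif4ebp3, Eef1e1, Dhps and the other Dph genes were named after their values were seen. Coordinates of genes are those of the deposited table, for which rn6 is the one rat build named. Promoter sequences are RefSeq's, on GRCr8.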

Additional observations from a re-analysis of the deposited data

How the results depend on the processing

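The counts of translation factors past the threshold, 12 higher and 17 lower, stayed within 1.5 times under all alternatives run. Leaving out 1 library gave 11 to 12 higher and 12 to 16 lower, DESeq2 gave 13 and 19 (32.7% and 29.4% of all genes), and the replicate block gave 11 and 17. The libraries of equal number share only a number. The median log2 fold change of the tested translation factors, -0.18, was -0.0913 without normalisation factors, -0.116 in the most abundant rows and -0.2007 to -0.1202 without 1 library. In the most abundant rows 11 of 50 other translation genes were higher, not 17, and the reason was not tested. All genes called higher also went from 3753 of 13363 to 2946 of 13255 in that setting. Signs turned for Eif4h (0.18), Eif2b2 (-0.0092) and Eif2ak3 (-1.01) in the most abundant row, for Eif3b (0.026) without normalisation factors, for Eef1a2 (0.034) without INS-MOCK replicate 1, for Eef1akmt1 (0.019) without INS-MOCK replicate 3, for Eif3j (-0.023) without INS-SMA replicate 2 and for Eif1a (0.058) without INS-SMA replicate 3. Without 1 library each, the ranges were -0.4837 to 0.034 for Eef1a2, -0.5365 to 0.019 for Eef1akmt1, -0.023 to 1.15 for Eif3j and -0.7761 to 0.058 for Eif1a. The cause was not tested. Of 29 called members, 20 held in all 16 alternatives. Adding unnamed rows to the genes they lie in was not run, since these rows carry no position. Leaving out unsteady genes was chosen after seeing the data, and shares of all tested genes under that rule were not computed. It gave 11 higher and 16 lower members, a median of -0.19, and 17 and 11 other translation genes. A floor of 3 counts is 0.117 to 0.180 CPM, and Eif2d (2 counts) and Eef1akmt2 (0 counts) lay below it in a library. Low counts also limit Eef1a1, Eif5b, Eif3l, Eif4ebp3 and Eef2kmt, each under 60 counts in at least 1 library. Eif2b3 was this low (56 counts) in INS-MOCK replicate 1 alone.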
